A study of Mus musculus with 12 samples.

Results

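Interferon-stimulated genes were examined in mouse embryonic fibroblasts (MEFs), connective tissue cells grown from embryos. The members were a list of 45 gene symbols, each represented by its transcript row with the highest total count. All 45 were found among the 23366 symbols of the count table and all 45 were among the 13882 genes tested. The study compared Carm1 knockout with wild-type MEFs. CARM1 is an arginine methyltransferase of histone H3 and other proteins that acts as a transcriptional coactivator. There were 4 groups of 2 RNA-seq libraries: knockout cells starved of glucose for 18 h, knockout cells in rich medium, wild-type cells starved for 18 h, and wild-type cells in rich medium. All were C57BL/6 cells at passages 3 to 5. Rich medium was DMEM with 10% fetal bovine serum and antibiotics. For starvation, cells were washed and moved to glucose-free DMEM with 10% dialyzed serum, so washing, serum dialysis and time in culture went with the lack of glucose. The labels do not say which part of Carm1 is removed, how many embryos gave the cells, or whether the replicates were separate cultures. The p-values therefore measure only the spread between these libraries, which may be technical.

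Type I interferons bind the receptor IFNAR, whose kinases JAK1 and TYK2 phosphorylate STAT proteins, STAT2 among them. STAT2 and IRF9 are subunits of the factor ISGF3, which binds interferon-stimulated response elements (ISREs) in the promoters of target genes. Interferon gamma signals through JAK1 and JAK2 to gamma-activated sites (GAS) in DNA. The targets sense viral RNA, degrade it, block translation and viral entry, conjugate the ubiquitin-like protein ISG15, and load peptides on MHC class I molecules. Fibroblasts also keep a low expression of these genes without added interferon.

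Gene counts per library ran from 8447014, in rich knockout replicate 1, to 28155431. Levels are given as CPM, counts scaled to the library size, with sizes adjusted by the trimmed mean of M values, so they compare libraries for a gene and not genes with each other. Carm1 stood at 53.9 and 58.6 CPM in starved and 48.1 and 70.8 CPM in rich knockout cells, and at 176 and 164 CPM in starved and 207 and 204 CPM in rich wild-type cells. Each knockout library was thus below each wild-type library, and the knockout kept part of the transcript. Xist had 0 to 6 counts in knockout libraries and 18657 to 23751 in wild-type libraries. The rich knockout replicates stood apart from each other. Over all genes tested, their difference in log2(CPM + 1) had a standard deviation of 0.688, against 0.171 to 0.173 in the other groups. Between those rich knockout replicates 4 of 45 members differed more than 2-fold on the CPM + 1 scale (Bst2, Samd9l, Psmb10 and Tap1), against 0 members in the other groups. Of the fibroblast markers, Col1a1 had 636 to 1206 CPM in knockout and 1400 to 2807 CPM in wild-type libraries, and Vim had 1430 to 2278 CPM in knockout and 2142 to 2764 CPM in wild-type libraries. Thy1, however, had 124 to 180 CPM in knockout libraries and at most 0.214 CPM in wild-type libraries, and Pdgfra had 31.5 to 47.9 CPM in knockout and 3.15 to 4.17 CPM in wild-type libraries. In every comparison of knockout with wild-type cells, the genotype and other differences between these cells therefore cannot be told apart.

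The wild-type rich libraries held the highest levels. Both stood above the other 6 libraries in 38 of 45 members, a pattern found in 15.5% of all genes tested. Cmpk2, Oas2, Oas3 and Iigp1 passed the filter on low counts only through that pair, and without them it was 34 of 41 members. Both starved knockout libraries stood below the other 6 in 16 members (11.5% of all genes), or in 15 of those 41. Summed over the members, levels came to 413 and 403 CPM in starved knockout, 773 and 656 CPM in rich knockout, 616 and 624 CPM in starved wild-type and 2014 and 2004 CPM in rich wild-type libraries. No groups overlapped in this sum, but the place of rich knockout below or above starved wild-type cells rests on Ifitm3. Without it the mean sums were 243.8 CPM in starved knockout, 442.7 CPM in rich knockout, 587.4 CPM in starved wild-type and 1880 CPM in rich wild-type cells. In bulk RNA, fewer cells that express a gene and less RNA per cell cannot be told apart. Of 34 members with at least 10 CPM in both wild-type rich libraries, 12 were under 1 CPM in all 4 knockout libraries, against 1.69% of all genes at that level. They were Irf7, Ifih1, Ifit1, Ifit3, Oasl2, Isg15, Usp18, Parp12, Rtp4, Ifi44, Igtp and Psmb8. In contrast, Ddx58, Ifit2, Ifitm3, Eif2ak2, Samd9l and Gbp2 had at least 10 CPM in each knockout library.

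**Figure D1:**
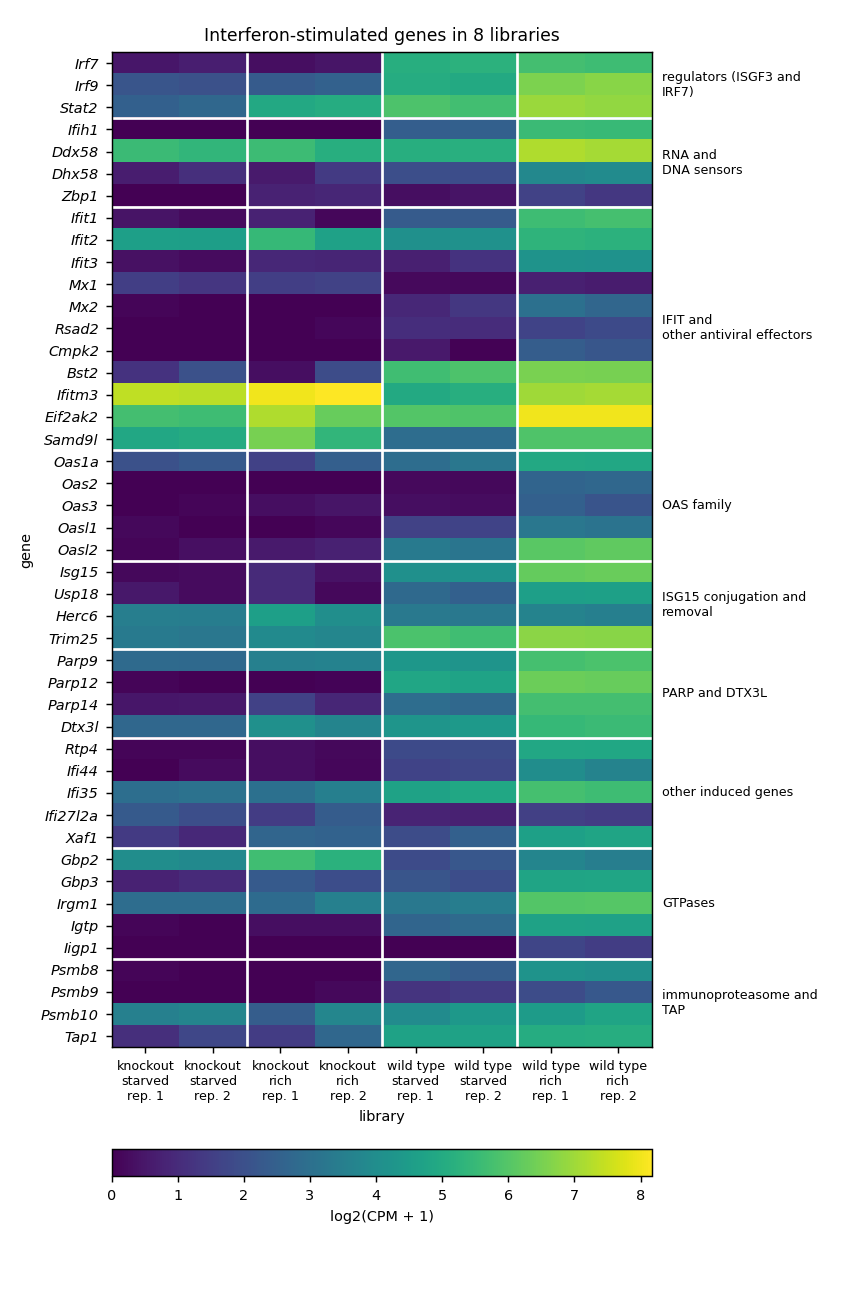
Level of each of the 45 interferon-stimulated genes (rows, grouped by role) in each of the 8 libraries (columns), as log2(CPM + 1). Rich wild-type libraries hold the highest values in 38 rows, many rows are near 0 in all 4 knockout libraries, and Ifitm3 is brightest in the knockout.

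The regulators Irf7, Irf9 and Stat2 were each lower in the knockout. Irf7, the interferon regulatory factor that amplifies interferon production, stood at 0.401 and 0.602 CPM in starved and 0.246 and 0.371 CPM in rich knockout cells. It stood at 33.8 and 37 CPM in starved and 52.2 and 48.5 CPM in rich wild-type cells, so the genotypes were far apart and starved lay below rich in the wild type. The log2 fold change of knockout over wild type was -6.13 ± 0.24 after starvation and -7.22 ± 0.28 in rich medium (adjusted p = 5.06e-06 and 7.88e-06). Starvation changed it by -0.51 ± 0.17 in wild-type cells, which did not pass the threshold (adjusted p = 0.0615). Irf9, the DNA-binding subunit of ISGF3, had 3.45 and 3.06 CPM in starved and 4.06 and 4.78 CPM in rich knockout cells. In the wild type it had 32.4 and 30.3 CPM in starved and 93.4 and 105 CPM in rich wild-type cells. Each knockout library was below each wild-type library, and the log2 fold change of starvation was -0.46 ± 0.18, adjusted p = 0.116 in knockout cells and -1.66 ± 0.15, adjusted p = 0.00056 in wild-type cells. Knockout over wild type was -3.27 ± 0.17, adjusted p = 1.35e-05 after starvation and -4.47 ± 0.18, adjusted p = 7.91e-06 in rich medium.

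Stat2, the ISGF3 subunit specific to the type I and type III interferon pathways, fell with starvation in both genotypes. It stood at 4.65 and 5.68 CPM in starved and 29.4 and 32.2 CPM in rich knockout cells. Its wild-type values were 58.6 and 50.7 CPM in starved and 123 and 114 CPM in rich wild-type cells. The 4 groups did not overlap, and their order was starved knockout, rich knockout, starved wild type, rich wild type from low to high. The log2 fold change of starvation was -2.58 ± 0.17, adjusted p = 0.000592 in knockout cells and -1.12 ± 0.15, adjusted p = 0.00229 in wild-type cells. Stat2 was the 1 member whose starvation response passed the test as more negative in the knockout (difference -1.46 ± 0.22, adjusted p = 0.00818). That call was lost when wild-type rich replicate 1 or 2, wild-type starved replicate 1 or starved knockout replicate 1 was left out. The mapped span of Stat2 overlaps Apof in the GRCm38 annotation, and it is not known here whether counting used strand.

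**Figure D2:**
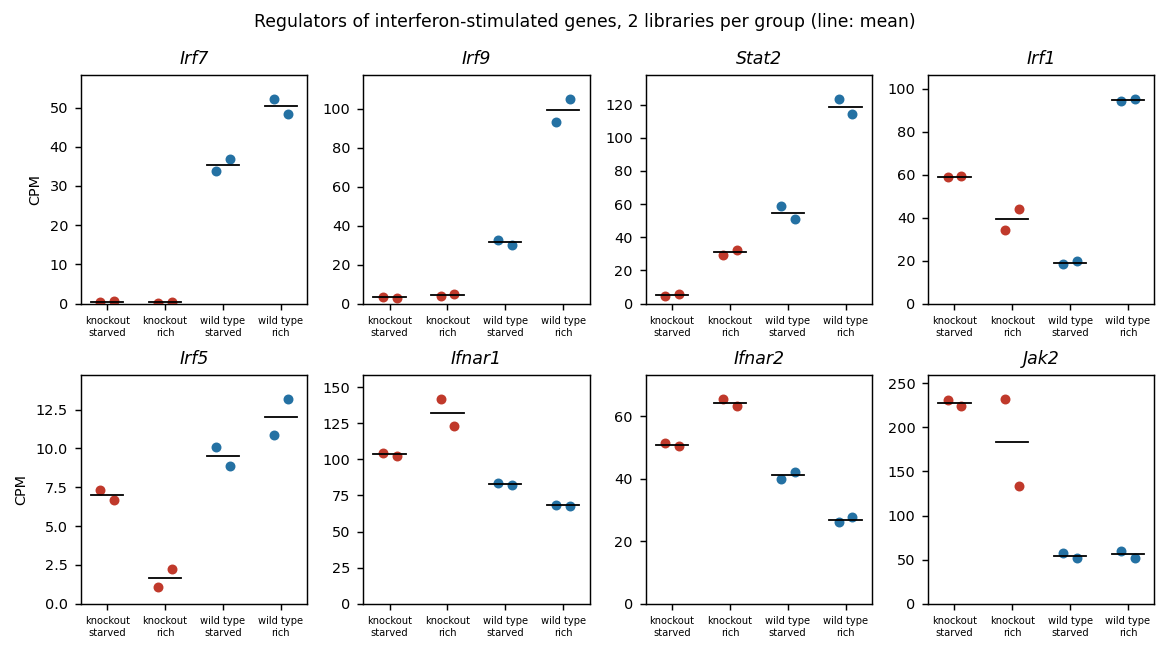
CPM in each library (points, linear axis from 0) and group mean (line) for 3 members, Irf7, Irf9 and Stat2, and for 5 other pathway genes, with knockout libraries in red and wild-type libraries in blue. The members are lowest in knockout cells, whereas Irf1 and Irf5 are higher in starved than in rich knockout libraries and Jak2 is higher in the knockout.

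Promoters of 34 of the 45 members were found in RefSeq's GRCm38.p6 annotation, as 37 windows from 250 bases before to 50 after a start site. They were searched on both strands for the ISRE core, GAAA then any 2 bases then GAAA (TTTC, any 2 bases and TTTC on the other strand), and for the GAS motif TTCNNNGAA, with overlapping matches counted. An ISRE core was found in 16 of the 37 windows (43.2%), against 3.44% of all 32851 windows of the same length. A GAS motif was found in 8 of the 37 (21.6%), against 8.30% of all. A match describes letters only, and no match says only that these letters are not in the window. Shown are the promoters of the regulators, which act on many of the others, and Ifitm3 and Gbp3, which hold an ISRE core and had 2 of the 3 smallest p-values for starvation of wild-type cells. Capitals mark ISRE core and GAS matches. The windows, 5′ to 3′ on the gene's strand, are Irf7 at chr7:141266375-141266674 (minus strand), Irf9 at chr14:55603735-55604034 (plus; the first of 2 windows), Stat2 at chr10:128270248-128270547 (plus), Ifitm3 at chr7:141010695-141010994 (minus) and Gbp3 at chr3:142559794-142560093 (plus).
Irf7: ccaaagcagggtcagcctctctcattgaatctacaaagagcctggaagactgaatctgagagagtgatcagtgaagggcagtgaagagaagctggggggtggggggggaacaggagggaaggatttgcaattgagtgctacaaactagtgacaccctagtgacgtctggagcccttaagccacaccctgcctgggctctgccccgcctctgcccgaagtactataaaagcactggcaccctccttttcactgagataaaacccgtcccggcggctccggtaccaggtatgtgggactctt
Irf9: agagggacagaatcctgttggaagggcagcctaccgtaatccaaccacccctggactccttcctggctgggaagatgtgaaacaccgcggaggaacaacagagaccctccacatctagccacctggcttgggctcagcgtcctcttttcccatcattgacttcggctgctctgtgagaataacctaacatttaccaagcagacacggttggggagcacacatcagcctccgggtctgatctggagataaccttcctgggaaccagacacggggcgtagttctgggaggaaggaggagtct
Stat2: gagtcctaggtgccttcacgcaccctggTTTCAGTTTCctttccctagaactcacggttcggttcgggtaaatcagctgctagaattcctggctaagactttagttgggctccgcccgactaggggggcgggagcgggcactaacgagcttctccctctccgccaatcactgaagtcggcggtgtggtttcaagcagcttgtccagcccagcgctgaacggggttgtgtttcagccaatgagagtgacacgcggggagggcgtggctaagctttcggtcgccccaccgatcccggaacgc
Ifitm3: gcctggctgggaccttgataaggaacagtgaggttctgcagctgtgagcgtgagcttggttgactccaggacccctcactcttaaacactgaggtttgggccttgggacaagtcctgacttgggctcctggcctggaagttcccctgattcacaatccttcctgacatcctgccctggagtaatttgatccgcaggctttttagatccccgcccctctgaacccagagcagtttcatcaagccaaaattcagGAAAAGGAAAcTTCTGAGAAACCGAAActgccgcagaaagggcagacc
Gbp3: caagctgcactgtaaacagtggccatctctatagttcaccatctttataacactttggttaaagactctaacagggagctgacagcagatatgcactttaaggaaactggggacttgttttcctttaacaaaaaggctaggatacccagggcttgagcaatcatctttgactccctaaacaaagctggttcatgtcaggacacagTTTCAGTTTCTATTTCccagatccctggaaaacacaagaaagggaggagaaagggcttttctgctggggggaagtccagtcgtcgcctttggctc
The ISRE core of Stat2 began at position -222 from the start site. Gbp3 had overlapping cores at -45 and -39, and Ifitm3 had cores at 3 and 20 with a GAS motif at 14, all after its start. No match was found in the windows printed for Irf7 and Irf9.

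The RNA sensors differed among themselves. Ddx58, which encodes the sensor RIG-I, had 46.3 and 40.7 CPM in starved and 48 and 33.7 CPM in rich knockout cells. Levels in wild-type libraries were 33.8 and 34.9 CPM in starved and 145 and 133 CPM in rich wild-type cells. Starved wild-type values thus lay within the range of the knockout, in which the starved and rich libraries overlapped. The log2 fold change of starvation was 0.10 ± 0.19, adjusted p = 0.76 in knockout cells and -2.02 ± 0.19, adjusted p = 0.000603 in wild-type cells. Ifih1, which encodes the sensor MDA5 for long double-stranded RNA, had 0 counts in all 4 knockout libraries, which allows up to 0.120 to 0.369 CPM per library. It had 4.38 and 4.74 CPM in starved and 46.5 and 44 CPM in rich wild-type cells. Taking 3 counts over the group as the floor, Ifih1 was at least 73.5-fold lower in starved knockout than in starved wild-type cells, and at least 446-fold lower in rich knockout than in rich wild-type cells. Starvation lowered it in wild-type cells by a log2 fold change of -3.31 ± 0.20, adjusted p = 0.00056. Dhx58, the regulatory helicase LGP2, had 0.492 to 1.62 CPM in knockout and 2.81 to 14.4 CPM in wild-type libraries. Zbp1, a sensor of Z-form nucleic acids, was scarce throughout, with 0 to 0.835 CPM in knockout and 0.239 to 2.09 CPM in wild-type libraries. It had 0 counts in starved knockout cells. With 3 counts over that group it was 13-fold lower than in rich knockout cells, whose 24 counts were taken as exact.

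Among the antiviral effectors, Eif2ak2 and Ifitm3 went opposite ways between the genotypes in rich medium. Eif2ak2, the kinase PKR that blocks translation on sensing double-stranded RNA, had 52.1 and 49.1 CPM in starved and 146 and 76.8 CPM in rich knockout cells. It had 61.8 and 59.7 CPM in starved and 254 and 254 CPM in rich wild-type cells. The starved libraries of both genotypes lay close together, below all rich libraries. Starvation changed Eif2ak2 by -1.14 ± 0.27, adjusted p = 0.0299 in knockout cells and -2.06 ± 0.28, adjusted p = 0.00211 in wild-type cells (log2 fold changes). Knockout over wild type was -0.26 ± 0.27, adjusted p = 0.439 after starvation, not passing, and -1.19 ± 0.27, adjusted p = 0.011 in rich medium. The rich-medium call was lost without wild-type rich replicate 1 or 2. Eif2ak2 overlaps Gm6548 in the GRCm38 annotation. Ifitm3, a membrane protein that blocks the entry of enveloped viruses, had 168 and 161 CPM in starved and 256 and 288 CPM in rich knockout cells. Its wild-type values were 30.3 and 33.9 CPM in starved and 127 and 132 CPM in rich wild-type cells. All knockout libraries were above all wild-type libraries, and the log2 fold change of knockout over wild type was 2.35 ± 0.13, adjusted p = 1.78e-05 after starvation and 1.07 ± 0.13, adjusted p = 0.000625 in rich medium. Starvation lowered Ifitm3 in both genotypes, with log2 fold changes of -0.73 ± 0.13, adjusted p = 0.0103 in knockout and -2.01 ± 0.13, adjusted p = 0.000198 in wild-type cells.

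Samd9l and Mx1 were further effectors that did not follow the loss in the knockout. Samd9l, a restriction factor that inhibits translation, had 28.6 and 31.3 CPM in starved and 89 and 40.7 CPM in rich knockout cells. Wild-type libraries held 6.5 and 6.41 CPM in starved and 59.9 and 59.4 CPM in rich wild-type cells. It was higher in starved knockout than in starved wild-type cells (log2 fold change 2.21 ± 0.34, adjusted p = 0.00147). In rich medium the wild-type values lay between the rich knockout replicates (0.11 ± 0.32, adjusted p = 0.8). Without rich knockout replicate 1 the log2 fold change was -0.60, and without replicate 2 it was 0.57. Mx1, a dynamin-like GTPase that is defective in most laboratory mouse strains, was scarce. It had 1.89 and 1.46 CPM in starved and 1.85 and 2.04 CPM in rich knockout cells, and 0.159 and 0.139 CPM in starved and 0.651 and 0.535 CPM in rich wild-type cells. Each knockout library stood above each wild-type library (3.45 ± 0.40, adjusted p = 0.000387 after starvation and 1.73 ± 0.34, adjusted p = 0.00639 in rich medium). The rich-medium call of Mx1 was lost without wild-type rich replicate 2.

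The IFIT genes, whose products bind viral RNA, differed among themselves. Ifit1 had 0.361 and 0.172 CPM in starved and 0.738 and 0.0927 CPM in rich knockout cells, and 4.07 and 4.12 CPM in starved and 48.8 and 53 CPM in rich wild-type cells. The knockout libraries were all under 1 CPM. Ifit3 had 0.172 to 0.861 CPM in knockout libraries and 0.638 to 17.3 CPM in wild-type libraries. Ifit2 had 23.3 and 23.1 CPM in starved and 43.4 and 24.8 CPM in rich knockout cells, and 16.3 and 16.8 CPM in starved and 38.7 and 37.3 CPM in rich wild-type cells. For Ifit2 the genotypes differed by 0.49 ± 0.25, adjusted p = 0.136 after starvation and -0.17 ± 0.25, adjusted p = 0.61 in rich medium (log2 fold changes), neither passing the threshold. Starvation of wild-type cells changed Ifit1, Ifit2 and Ifit3 by log2 fold changes of -3.63 ± 0.38, -1.20 ± 0.25 and -4.13 ± 0.33. The call of Ifit2 was lost without any 1 of the 4 wild-type libraries. Ifit3 has a near-identical paralog, Ifit3b, with which reads could be shared. Bst2, the tether that retains budding virions, had 0.246 to 3.10 CPM in knockout and 49.4 to 90.7 CPM in wild-type libraries. Mx2, Rsad2 and Cmpk2 had at most 0.0927 CPM in any knockout library, and at most 7.06 CPM in the wild type.

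The OAS genes encode synthetases of 2′-5′ oligoadenylates, which activate RNase L, and related proteins. Oasl2 had 0.0802 and 0.258 CPM in starved and 0.492 and 0.696 CPM in rich knockout cells. It had 9.29 and 8.0 CPM in starved and 67.2 and 71 CPM in rich wild-type cells. The genotypes did not overlap, and the log2 fold change of knockout over wild type was -5.65 ± 0.36, adjusted p = 2.78e-05 after starvation and -6.76 ± 0.32, adjusted p = 1.42e-05 in rich medium. Oas1a had 3.05 and 3.92 CPM in starved and 1.97 and 4.5 CPM in rich knockout cells, and 6.62 and 8.52 CPM in starved and 29.7 and 29.1 CPM in rich wild-type cells. Starvation changed Oas1a by 0.01 ± 0.36, adjusted p = 1 in knockout and -1.96 ± 0.32, adjusted p = 0.00442 in wild-type cells (log2 fold changes). The wild-type call was lost without wild-type starved replicate 1. Oas1a has near-identical paralogs, between which reads could be split or shared. Oas2, Oas3 and Oasl1 had 0 to 0.371 CPM in knockout libraries and 3.35 to 8.46 CPM in rich wild-type libraries.

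Isg15, the ubiquitin-like modifier, and Usp18, the protease that removes it, were nearly silent in the knockout. Isg15 had 0.12 and 0.172 CPM in starved and 0.985 and 0.325 CPM in rich knockout cells, against 16.1 and 16.9 CPM in starved and 75.3 and 77.7 CPM in rich wild-type cells. Usp18 had 0.441 and 0.172 CPM in starved and 0.985 and 0.139 CPM in rich knockout cells, against 5.9 and 4.74 CPM in starved and 23.6 and 23.8 CPM in rich wild-type cells. For both, every knockout library was under 1 CPM and starved lay below rich in the wild type. The log2 fold change of starvation in wild-type cells was -2.21 ± 0.25, adjusted p = 0.00119 for Isg15 and -2.16 ± 0.42, adjusted p = 0.0085 for Usp18. The call of Usp18 was lost without any 1 of the 4 wild-type libraries. Trim25, a ubiquitin ligase that activates RIG-I, kept some expression, with 9.43 and 8.52 CPM in starved and 14 and 12.6 CPM in rich knockout cells. In the wild type it had 56.9 and 49.6 CPM in starved and 108 and 104 CPM in rich wild-type cells. The groups were apart in each comparison, with knockout over wild type at -2.57 ± 0.15, adjusted p = 2.16e-05 after starvation and -3.00 ± 0.16, adjusted p = 1.97e-05 in rich medium. Herc6, the mouse ISG15 ligase, had 10.3 and 9.98 CPM in starved and 23.3 and 15.3 CPM in rich knockout cells. It had 8.85 and 8.59 CPM in starved and 11.5 and 10.4 CPM in rich wild-type cells, so that it was the exception of this group, with knockout over wild type at 0.22 ± 0.22, adjusted p = 0.444 after starvation and 0.80 ± 0.22, adjusted p = 0.0244 in rich medium. The rich-medium call of Herc6 was lost when any 1 of the 6 libraries other than the rich knockout pair was left out.

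The ADP-ribosyltransferase genes Parp9, Parp12 and Parp14 and the PARP9 partner Dtx3l, a ubiquitin ligase, were lower in the knockout in either medium. Parp12 had 2 counts in all over the starved and 1 count over the rich knockout libraries, against 27.6 and 25.9 CPM in starved and 79.5 and 76.7 CPM in rich wild-type cells. The ratio of knockout to wild type was 0.00156 (exact 95% interval 0.000188 to 0.00563) after starvation and 0.000432 (exact 95% interval 1.09e-05 to 0.00241) in rich medium, intervals that cover counting error only. Parp9 had 6.02 and 5.89 CPM in starved and 10.7 and 11.4 CPM in rich knockout cells. Its wild-type values were 19.2 and 17.9 CPM in starved and 53.4 and 57.4 CPM in rich wild-type cells. Parp9 and Dtx3l overlap in the GRCm38 annotation and could share reads. Dtx3l had 5.64 to 16 CPM in knockout and 18.3 to 46.8 CPM in wild-type libraries, and Parp14 had 0.401 to 1.97 CPM in knockout and 5.75 to 51.8 CPM in wild-type libraries. Starvation of wild-type cells changed Parp9, Parp12, Parp14 and Dtx3l by log2 fold changes of -1.58 ± 0.14, -1.55 ± 0.23, -3.07 ± 0.28 and -1.24 ± 0.18. The call of Parp12 was lost without wild-type starved replicate 2.

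Rtp4, a receptor transporter protein that restrains interferon responses, had the smallest p for starvation of wild-type cells. It had 0.0802 and 0.0861 CPM in starved and 0.246 and 0.139 CPM in rich knockout cells, against 2.59 and 2.67 CPM in starved and 28.9 and 28.1 CPM in rich wild-type cells. The log2 fold change of starvation was -3.43 ± 0.19, adjusted p = 0.000135 in wild-type cells, and knockout over wild type was -4.89 ± 0.32, adjusted p = 3.25e-05 after starvation and -7.34 ± 0.29, adjusted p = 7.88e-06 in rich medium. Rtp4 overlaps Masp1 in the GRCm38 annotation. Ifi35 had 6.82 and 7.44 CPM in starved and 7.14 and 10.6 CPM in rich knockout cells. Its wild-type values were 25.2 and 27.9 CPM in starved and 53.8 and 48.8 CPM in rich wild-type cells. Each knockout library was below each wild-type library. Xaf1, a pro-apoptotic antagonist of XIAP, had 1.6 and 0.904 CPM in starved and 5.41 and 4.92 CPM in rich knockout cells, and 2.71 and 4.71 CPM in starved and 24 and 26.3 CPM in rich wild-type cells. Ifi44 had 0 to 0.246 CPM in knockout and 2.11 to 15.2 CPM in wild-type libraries. Ifi27l2a had 3.97 and 2.88 CPM in starved and 1.72 and 4.17 CPM in rich knockout cells, and 0.757 and 0.693 CPM in starved and 1.91 and 1.71 CPM in rich wild-type cells, and was higher in starved knockout than in starved wild-type cells (2.24 ± 0.43, adjusted p = 0.00397).

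The GTPases, many of them strongly induced by interferon gamma, held another exception. Gbp2, a guanylate-binding protein of cell-autonomous defence, had 15 and 13.7 CPM in starved and 50.1 and 36.3 CPM in rich knockout cells. Wild-type libraries held 2.63 and 3.64 CPM in starved and 12.2 and 10.3 CPM in rich wild-type cells. It was higher in the knockout in either medium (2.19 ± 0.25, adjusted p = 0.000345 after starvation and 1.93 ± 0.24, adjusted p = 0.000722 in rich medium), and starvation lowered it in both genotypes (-1.58 ± 0.23, adjusted p = 0.00606 in knockout and -1.84 ± 0.25, adjusted p = 0.00215 in wild-type cells). Its relative Gbp3 had 0.722 and 0.947 CPM in starved and 3.94 and 2.78 CPM in rich knockout cells. It had 3.43 and 2.84 CPM in starved and 26.4 and 26.8 CPM in rich wild-type cells, so that Gbp3 was lower in the knockout in either medium, with log2 fold changes of starvation of -1.96 ± 0.28, adjusted p = 0.00566 in knockout and -3.08 ± 0.23, adjusted p = 0.000317 in wild-type cells. Irgm1, an immunity-related GTPase, had 6.54 and 6.54 CPM in starved and 6.28 and 10.7 CPM in rich knockout cells. Levels in wild-type libraries were 8.69 and 9.97 CPM in starved and 62.6 and 63.4 CPM in rich wild-type cells. The starved groups came within 2-fold of each other (-0.51 ± 0.24, adjusted p = 0.112), whereas in rich medium the knockout was lower (-2.85 ± 0.25, adjusted p = 0.000165). Igtp had 0 to 0.246 CPM in knockout and 5.38 to 25.3 CPM in wild-type libraries. Iigp1 was detected only in the rich wild-type libraries, at 2.28 and 1.78 CPM, and had 0 counts in the other 6.

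Psmb8, Psmb9 and Psmb10 encode the catalytic subunits of the immunoproteasome, and Tap1 encodes a subunit of the peptide transporter. Tap1 had 1.16 and 2.32 CPM in starved and 1.72 and 5.61 CPM in rich knockout cells. In the wild type it had 25.3 and 25 CPM in starved and 32.7 and 33.3 CPM in rich wild-type cells. Psmb10 had 10.7 and 12.2 CPM in starved and 4.31 and 12.5 CPM in rich knockout cells, and 14.4 and 19.6 CPM in starved and 21.2 and 26.2 CPM in rich wild-type cells. Both genes overlapped between starved and rich knockout libraries. In wild-type cells Tap1 changed with starvation by -0.39 ± 0.41, adjusted p = 0.507, and Psmb10 by -0.48 ± 0.41, adjusted p = 0.408. Neither passed in this fit of all 8 libraries. Both were called lower by limma-voom and by edgeR when the knockout libraries were kept out, so a lack of response cannot be read from the first fit. Psmb8 had 2 counts in all over the starved and 0 over the rich knockout libraries, against 5.54 and 4.29 CPM in starved and 17.2 and 16 CPM in rich wild-type cells. It was at least 164-fold lower in rich knockout than in rich wild-type cells. Psmb9 had 0 to 0.139 CPM in knockout and 1.36 to 3.78 CPM in wild-type libraries.

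Starvation of wild-type cells lowered most members. Of 45 members, 37 fell (82.2%, against 18.0% of all genes tested) and 0 rose (against 14.8%). Without adjustment, 41 fell and 0 rose at p under 0.05, and neither DESeq2 (0) nor limma-voom (0) called a rise. The 8 that did not pass were Irf7, Rsad2, Bst2, Herc6, Ifi27l2a, Psmb9, Psmb10 and Tap1, all with negative log2 fold changes. Limma-voom called all 45 members lower, and so did edgeR with the knockout libraries kept out. Those settings passed 9400 and 9332 genes in either direction, against 4560 in the main fit. By role, 2 of 3 regulators, 4 of 4 sensors, 9 of 11 effectors, 5 of 5 OAS genes, 3 of 4 ISG15 genes, 4 of 4 PARP and DTX3L genes, 4 of 5 other genes, 5 of 5 GTPases and 1 of 4 immunoproteasome and TAP genes fell. The median log2 fold change was -2.02, against 0 over all genes tested, and fitted values ran from -5.14 for Oas2 to -0.33 for Herc6. Iigp1 was at least 35.9-fold lower, with 0 counts in starved cells. Cmpk2, Oas2, Oas3 and Iigp1 passed the filter on low counts through the rich wild-type libraries alone, so they had to be lower elsewhere, and without them 33 of 41 fell. Calls in 23 members held when any 1 of the 8 libraries was left out. All 45 members fell without either rich knockout replicate, and 27, 28, 26 and 25 fell without wild-type rich replicates 1 and 2 and wild-type starved replicates 1 and 2, in that order.

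Starvation of knockout cells lowered fewer members than starvation of wild-type cells. In all 4 knockout libraries 21 members were under 1 CPM and 6 had at least 10 CPM. The part of these levels in the number of calls was not tested. Of 45 members, 13 fell (28.9%, against 9.77% of all genes) and 0 rose (against 8.44%). Without adjustment, 21 fell and 0 rose at p under 0.05, with 0 rises by DESeq2 and by limma-voom. Those that fell were Stat2, Zbp1, Ifitm3, Eif2ak2, Oasl2, Herc6, Trim25, Parp9, Parp14, Dtx3l, Xaf1, Gbp2 and Gbp3. All but Herc6 also fell in starved wild-type cells, so 12 of these 13 and 12 of the 37 wild-type calls were shared. Because 82.2% of members fell in wild-type cells, a high share of any 13 members would be called in both by that rate alone. Over all genes tested, 581 fell in both, which is 42.8% of the knockout calls and 23.2% of the wild-type calls. Of the 32 members not called, 10 had at most 3 counts in each knockout group, where no fall could be measured. The median log2 fold change was -0.90 with members at 0 or at 1 to 3 counts entered at their bound or ratio and those 10 left out, and -0.56 as fitted, against 0 over all genes. The calls rest on few libraries. Without starved knockout replicate 1 or 2 only Stat2 passed, a fit of the 4 knockout libraries called 0 of 27 members tested (smallest adjusted p over all genes 0.0583, 13 members lower before adjustment), and limma-voom called 5. Without a wild-type library 8 or 9 fell, and 19 and 17 fell without rich knockout replicates 1 and 2, with 1 and 2 members higher.

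**Figure D3:**
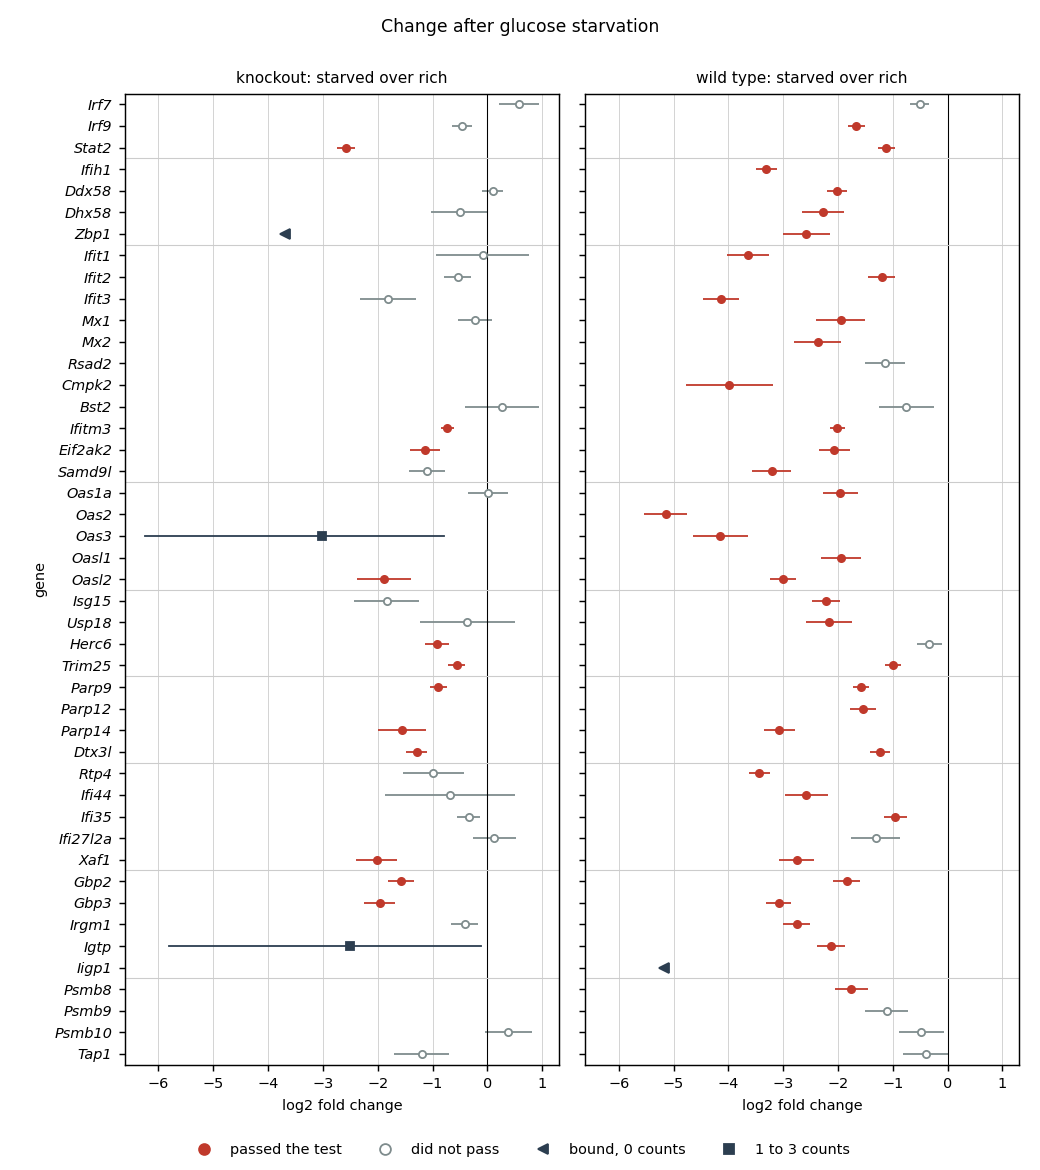
Log2 fold change of starved over rich cells for each member, in knockout (left) and wild-type cells (right), with standard errors and a shared axis. Triangles are bounds against a group with 0 counts, squares are ratios with exact 95% intervals where a group had 1 to 3 counts, and rows without a symbol had at most 3 counts in both groups. All wild-type values lie below 0, and knockout values lie closer to 0 in most rows.

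In rich medium most members were lower in the knockout. Of 45 members, 37 were lower (82.2%, against 20.7% of all genes) and 4 were higher (8.89%, against 23.4%), namely Mx1, Ifitm3, Herc6 and Gbp2. In either direction 44.1% of all genes passed. Zbp1, Ifit2, Samd9l and Ifi27l2a did not pass. All 3 regulators, all 5 OAS genes, all 4 PARP and DTX3L genes and all 4 immunoproteasome and TAP genes were lower. The median log2 fold change was -3.58, against 0.00 over all genes tested. Fitted values for members with over 3 counts in each group ran from -7.45 for Ifit1 to 1.93 for Gbp2. Ifih1, Mx2, Cmpk2, Oas2, Iigp1 and Psmb8 had 0 counts in rich knockout cells and were at least 446-fold, 61.1-fold, 38.7-fold, 54.1-fold, 19.8-fold and 164-fold lower. Cmpk2, Oas2, Oas3 and Iigp1 passed the filter through rich wild-type cells alone, so they had to be lower in the knockout here. Without them 33 of 41 were lower and 4 higher, with a median log2 fold change of -3.09. The calls of Mx1, Eif2ak2, Herc6 and Psmb10 were lost without some single library. With limma-voom, 29 members were lower and 2 higher.

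After starvation the members were still lower in the knockout, with more exceptions. Of 45 members, 31 were lower (68.9%, against 26.8% of all genes) and 5 were higher (11.1%, against 27.8%), namely Mx1, Ifitm3, Samd9l, Ifi27l2a and Gbp2. In either direction 54.6% of all genes passed. Ddx58, Ifit2, Cmpk2, Eif2ak2, Oas3, Herc6, Irgm1, Iigp1 and Psmb10 did not pass. The median log2 fold change was -2.34 with members at 0 or at 1 to 3 counts entered at their bound or ratio, and -3.27 as fitted, against -0.02 over all genes tested. The fitted values with over 3 counts in each group ran from -6.77 for Isg15 to 3.45 for Mx1. Psmb9, Rsad2, Zbp1 and Oas2 had 0 counts in starved knockout cells. With 3 counts over that group they were 24.4-fold, 17.3-fold, 4.76-fold and 2.38-fold lower. Cmpk2, also at 0 there, was 3.87-fold lower in this way but did not pass. The wild-type counts were taken as exact. They were only 16 for Zbp1, 13 for Cmpk2 and 8 for Oas2, so the least fold may be smaller. The comparisons of genotype in rich medium and after starvation use different libraries of each genotype, and 30 members were lower in both, which is 30 of 37 and 30 of 31. Because 82.2% of members were lower in rich medium, a high share of any 31 members would be lower in both by that rate alone. Over all genes tested, 1993 were lower in both, 69.5% of those lower in rich medium and 53.5% of those lower after starvation. With any 1 library left out, 28 to 36 were lower.

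**Figure D4:**
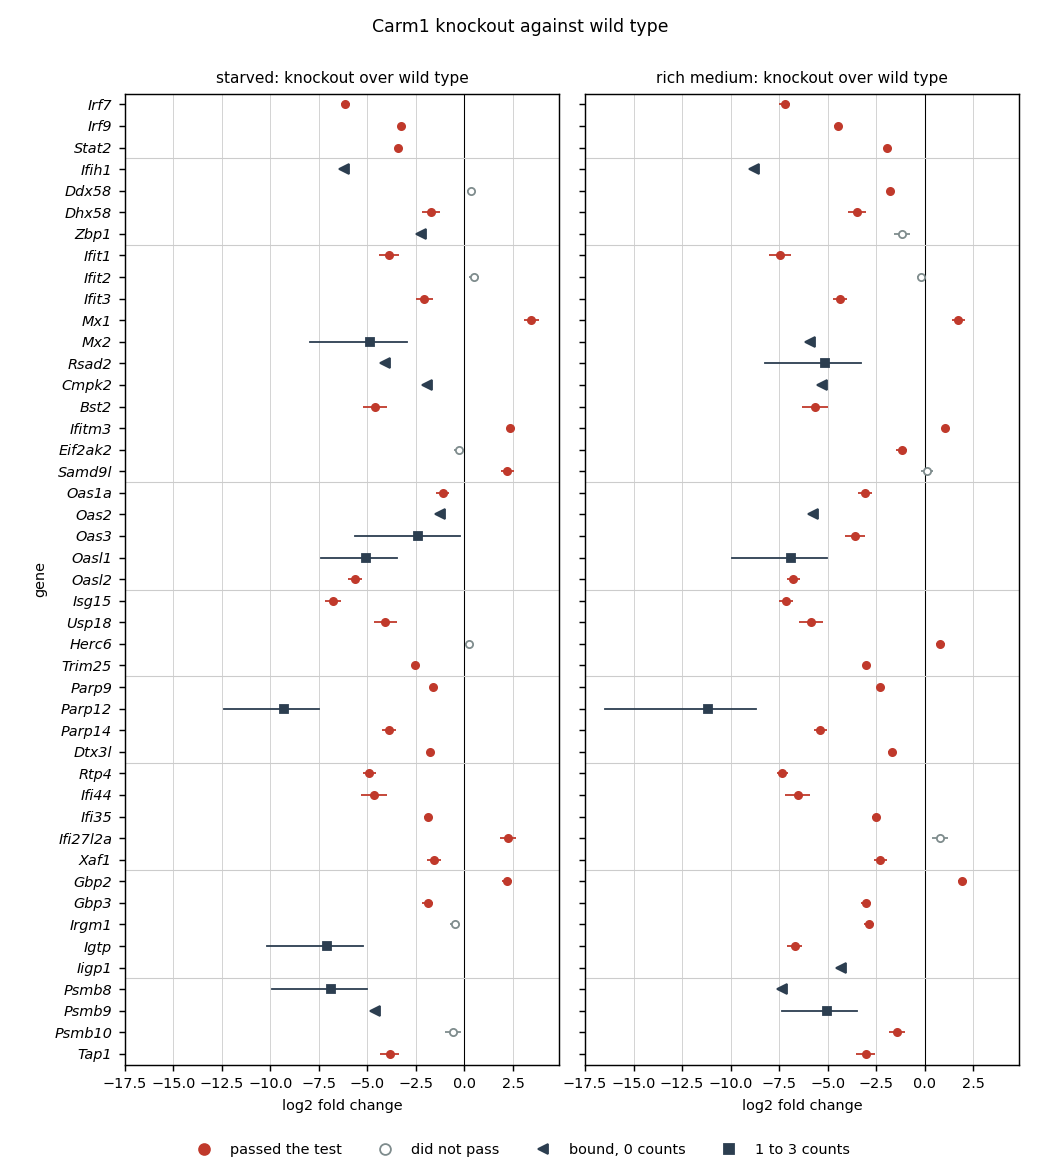
Log2 fold change of knockout over wild-type cells for each member, after starvation (left) and in rich medium (right), with standard errors, a shared axis and the symbols of the plot of starvation changes (triangles, bounds; squares, ratios with exact 95% intervals). Most rows lie below 0, and Mx1, Ifitm3 and Gbp2 lie above 0 in both media.

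Markers of other cell types also differed between the genotypes. Of all genes tested, 23.4% were higher and 20.7% lower in the knockout in rich medium, and 27.8% and 26.8% after starvation. The endothelial list (Pecam1, Cdh5, Kdr and Tek) summed to 242 to 245 CPM in starved and 132 to 158 CPM in rich knockout libraries, against 3.79 to 5.02 CPM in starved and 2.09 to 2.28 CPM in rich wild-type libraries. Of 3 tested, Pecam1 and Cdh5 were higher and Kdr lower in the knockout in either medium. Cdh5 made up most of the sum, and Kdr had 0 counts in both rich knockout libraries. The leukocyte list of 9 genes summed to 7.82 to 9.69 CPM in knockout and 2.14 to 5.33 CPM in wild-type libraries. Of its 5 tested genes, 3 were higher in the knockout in rich medium, and 4 were higher and 1 lower after starvation. Its defining gene Ptprc had 0 counts in all wild-type libraries and at most 0.775 CPM in the knockout. The epithelial list of 4 genes summed to 0.246 to 0.762 CPM in knockout and 1.44 to 3.74 CPM in wild-type libraries. Their part in the genotype differences of the members was not tested. The fibroblast list summed to 4680 to 4835 CPM in starved and 3966 to 6340 CPM in rich knockout libraries, and to 4756 to 5169 CPM in starved and 7394 to 7398 CPM in rich wild-type libraries.

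The starvation response itself differed between the genotypes in 8 members. The difference, knockout response minus wild-type response, was positive in 7 (15.6%, against 7.43% of all genes) and negative in 1, Stat2 (2.22%, against 5.91%). The 7 were Irf9, Ddx58, Ifit1, Ifitm3, Samd9l, Oas1a and Irgm1. Each fell less in knockout than in wild-type cells, or did not fall there. The difference was largest relative to its error for Ddx58 (2.12 ± 0.26, adjusted p = 0.004), followed by Ifitm3 (1.28 ± 0.18, adjusted p = 0.00598) and Irgm1 (2.34 ± 0.34, adjusted p = 0.00701). For 13 members a group had at most 3 counts, so that a difference of responses has no usable estimate, and all 8 calls were among the other 32. Of these calls, Ifit1 had only 13 counts over the starved and 8 over the rich knockout libraries, so its response there is poorly measured. Only Ddx58 passed with any 1 library left out. The number positive was 1 to 3 without any 1 library other than the rich knockout pair, with 1 without wild-type rich replicate 2 or wild-type starved replicate 1, and it was 19 and 15 without rich knockout replicates 1 and 2. The number negative ran from 0 to 3.

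Other genes of the pathway, from ligands to class I presentation, were counted from a list of 48, of which 47 were in the table and 41 were tested. The ligand genes Ifnb1, Ifna4, Ifng, Ifnl2 and Ifnl3 had 0 counts in all 8 libraries, which allows up to 0.104 to 0.369 CPM per library. Starvation raised 3 and lowered 16 of the 41 in wild-type cells (higher 14.8% and lower 18.0% of all genes), and raised 3 and lowered 6 in knockout cells (8.44% and 9.77%). In the knockout 12 were higher and 10 lower after starvation (27.8% and 26.8% of all genes), and 9 higher and 16 lower in rich medium (23.4% and 20.7%). The difference of responses was positive in 5 and negative in 1 (7.43% and 5.91%). Of the receptor genes, 4 of 5 tested were higher in the knockout in rich medium and 2 of 5 after starvation, with 0 lower. Ifnar2, a chain of the type I receptor, had 51.5 and 50.4 CPM in starved and 65.5 and 63.3 CPM in rich knockout cells, and 39.9 and 42.3 CPM in starved and 26.2 and 27.8 CPM in rich wild-type cells, and was higher in the knockout in rich medium (1.25 ± 0.13, adjusted p = 0.000301). Ifnar1, the other chain, had 105 and 102 CPM in starved and 142 and 123 CPM in rich knockout cells, and 83.6 and 81.9 CPM in starved and 68.6 and 67.8 CPM in rich wild-type cells, with 0.95 ± 0.12, adjusted p = 0.00093 in rich medium. Ifngr1 and Ifngr2 differed by -0.35 ± 0.14, adjusted p = 0.0772 and 0.86 ± 0.23, adjusted p = 0.0212 and Il10rb by 0.53 ± 0.16, adjusted p = 0.0317. The calls of Ifngr2 and Il10rb were lost without several single libraries, wild-type rich replicates 1 and 2 among them.

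Of the kinases, Jak2 was higher in the knockout, at 231 and 224 CPM in starved and 232 and 134 CPM in rich knockout cells, against 57 and 51.5 CPM in starved and 60.4 and 51.8 CPM in rich wild-type cells. Its log2 fold change was 2.06 ± 0.25, adjusted p = 0.000497 after starvation and 1.70 ± 0.25, adjusted p = 0.0017 in rich medium. Jak1 and Tyk2 did not pass in any of these comparisons. Stat3 was higher in the knockout (0.69 ± 0.16, adjusted p = 0.00966 after starvation and 0.94 ± 0.16, adjusted p = 0.00352 in rich medium), the first call lost without starved wild-type replicate 2 or either starved knockout library. With starvation Stat3 fell in both genotypes (-1.02 ± 0.16, adjusted p = 0.00804 in knockout and -0.77 ± 0.16, adjusted p = 0.0114 in wild-type cells). The knockout starvation call was lost without either starved knockout library and the wild-type one without any 1 of the 4 wild-type libraries.

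Irf1, a factor that drives many interferon gamma targets, differed in direction between the genotypes. It had 58.8 and 59.5 CPM in starved and 34.5 and 44 CPM in rich knockout cells. Levels in wild-type libraries were 18.2 and 19.7 CPM in starved and 94.5 and 95.3 CPM in rich wild-type cells. No 2 groups overlapped. The log2 fold change of starvation was 0.59 ± 0.15, adjusted p = 0.0377 in knockout and -2.32 ± 0.16, adjusted p = 0.00023 in wild-type cells, and the difference of the responses was 2.91 ± 0.22, adjusted p = 0.000853. The rise in knockout cells was lost with total-count scaling, with limma-voom and without any 1 of the 6 libraries other than the rich knockout pair, whereas the difference held without each library. Irf5 had 7.3 and 6.67 CPM in starved and 1.11 and 2.27 CPM in rich knockout cells, and 10.1 and 8.9 CPM in starved and 10.9 and 13.2 CPM in rich wild-type cells, with a starvation change of 1.93 ± 0.31, adjusted p = 0.008 in knockout and -0.34 ± 0.26, adjusted p = 0.359 in wild-type cells. Irf2 and Irf3 changed by 0.07 ± 0.22, adjusted p = 0.88 and 0.49 ± 0.34, adjusted p = 0.355 in knockout cells and by -1.10 ± 0.22, adjusted p = 0.00984 and -0.15 ± 0.34, adjusted p = 0.778 in wild-type cells. The call of Irf5 in knockout cells was lost without either starved knockout library and with limma-voom, and that of Irf2 in wild-type cells without any 1 of the 4 wild-type libraries. Irf8 was too low to test.

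Among the listed inhibitors of the pathway, 2 of 5 were higher and 3 of 5 lower in starved knockout than in starved wild-type cells, against 27.8% and 26.8% of all genes. Socs1, an inhibitor of JAK kinases, had 13.2 and 15.5 CPM in starved and 3.32 and 18.4 CPM in rich knockout cells, and 0.478 and 0.693 CPM in starved and 3.39 and 3.53 CPM in rich wild-type cells. The rich knockout replicates differed widely. Socs1 was higher in starved knockout than in starved wild-type cells (4.59 ± 0.75, adjusted p = 0.00193). With starvation it fell in wild-type cells (-2.54 ± 0.76, adjusted p = 0.0403) and did not pass in knockout cells (0.33 ± 0.60, adjusted p = 0.739). That fall was lost without any 1 of the 6 libraries other than the rich knockout pair. Socs3 fell with starvation in both genotypes (-1.76 ± 0.39, adjusted p = 0.0231 in knockout and -2.01 ± 0.40, adjusted p = 0.00883 in wild-type cells) and the phosphatase gene Ptpn6 likewise (-0.95 ± 0.24, adjusted p = 0.0338 in knockout and -1.08 ± 0.20, adjusted p = 0.00772 in wild-type cells). Both knockout calls were lost without any 1 of the 6 libraries other than the rich knockout pair. The wild-type Ptpn6 call was lost without any 1 of the 4 wild-type libraries, and that of Socs3 without any of them but rich replicate 1. Ptpn11 and Pias1 were lower in starved knockout than in starved wild-type cells (-0.43 ± 0.15, adjusted p = 0.0466 and -1.18 ± 0.26, adjusted p = 0.00652), the first call lost without any 1 of the 6 libraries other than the rich knockout pair and the second without starved knockout replicate 2.

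Class I presentation genes outside the member list were lower in the knockout in 7 of 9 cases in rich medium (20.7% of all genes) and in 4 of 9 after starvation (26.8%), when 1 of 9 was higher (27.8%). That gene was Tapbp, which encodes the peptide-loading factor tapasin, named after its values were seen. It had 48.7 and 45 CPM in starved and 47.4 and 76.3 CPM in rich knockout cells, and 26 and 28.6 CPM in starved and 184 and 199 CPM in rich wild-type cells. Its log2 fold change, knockout against wild type, was 0.78 ± 0.22, adjusted p = 0.0199 after starvation and -1.62 ± 0.22, adjusted p = 0.00121 in rich medium, and the first call was lost without any 1 of the 4 starved libraries. The class I heavy chain gene H2-K1, chosen after its values were seen, had 0.722 and 0.818 CPM in starved and 0.369 and 0.974 CPM in rich knockout cells. It had 248 and 255 CPM in starved and 246 and 228 CPM in rich wild-type cells. Its libraries thus split by genotype alone, with starvation changes of -0.02 ± 0.34, adjusted p = 0.999 in knockout and 0.08 ± 0.19, adjusted p = 0.776 in wild-type cells. MHC class I genes are highly similar to each other and vary between mouse strains, so their counts are less certain.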

How the data were processed

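RNA was sequenced from 8 libraries of MEFs, 2 per group. Another 4 libraries, from chromatin immunoprecipitation, were left out. The authors deposited whole-number read counts for each RefSeq transcript. The submitters' processing notes name TopHat2 2.0.9, bedtools and the mouse build mm9. How strand, multiply mapped reads and parts of transcripts were handled is not stated in those sources. Genes that overlap or have near-identical copies could therefore share reads.

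Each symbol was represented by its row with the highest total (31055 rows, 23366 symbols). In R 4.3.3, filterByExpr of edgeR 4.0.16 kept 13882 genes. All 8 libraries entered a quasi-likelihood fit with a mean per group and no replicate block. Two-sided tests were adjusted by Benjamini-Hochberg over all genes tested, and the threshold was 0.05. The standard error is the log2 fold change divided by the square root of F. Folds against 0 counts are bounds at 3 counts over the group and take the other group's counts as exact. Intervals are exact (Clopper-Pearson). Intervals and floors cover counting error only, because PCR copies that carry no identifier are not separate molecules. At the lowest depth, 3 counts equal 0.369 CPM in a library.

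The members and lists were chosen with earlier results of these data known. Each member may be named. Values in every library are given for the regulators, the 2 members with the highest mean CPM of each other role, the 3 with the smallest p per contrast and those called against the direction of most, and for others where a result turns on them. Of the other pathway genes, receptors, kinases, STATs, IRFs and inhibitors are named, except 1 that is not reported here. The code was tested on simulated counts. Alternatives were other scalings (relative log expression, total counts), other filters, DESeq2 1.42.0, limma-voom (limma 3.58.1) with library quality weights, a replicate block, fits of 4 libraries, the transcript with the lowest total, and each library left out.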

Additional observations from a re-analysis of the deposited data

Results flagged for a closer look

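The test of the difference itself (edgeR, knockout response minus wild-type response on the log2 scale) passed 13.3% of all genes tested, in either direction. By it, the starvation response differed between the genotypes in 8 of the 45 members and 6 of the 41 other pathway genes tested. Both counts are close to the 13.3% of all genes, and an excess was not tested. By direction, 15.6% of members were positive and 2.22% negative, against 7.43% and 5.91% of all genes. The genes that passed number 14. Among the interferon-stimulated genes these were Irf9 (1.20 ± 0.23), Stat2 (-1.46 ± 0.22), Ddx58 (2.12 ± 0.26), Ifit1 (3.55 ± 0.91), Ifitm3 (1.28 ± 0.18), Samd9l (2.10 ± 0.47), Oas1a (1.97 ± 0.47) and Irgm1 (2.34 ± 0.34). Their adjusted p ran from 0.0040 for Ddx58 to 0.0457 for Ifit1. Ifit1 was under 1 CPM in every knockout library, so its response there rests on few counts. Among the other pathway genes listed as receptors or IRFs they were Ifnar2 (-0.94 ± 0.18), Irf1 (2.91 ± 0.22) and Irf5 (2.27 ± 0.40), with adjusted p of 0.0162, 0.000853 and 0.0138. The others, chosen after their values were seen, were Tmem173 (1.42 ± 0.24, adjusted p = 0.0123), which encodes the adaptor STING, Tapbp (2.40 ± 0.31, adjusted p = 0.00459), which encodes tapasin, and the constitutive proteasome subunit gene Psmb7 (0.84 ± 0.17, adjusted p = 0.0206). With any 1 library left out, Ddx58, Irf1 and Tapbp passed in every such fit. The rich knockout replicates, which stood apart, enter each of these values.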

How the results depend on the processing

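Scaling (relative log expression or total counts), dropping the filter and the transcript with the lowest total kept each count of members within 1.5 times. Under total counts the median over all genes shifted by -0.121 (log2), to -0.138, for knockout against wild type after starvation. With limma-voom, 9400, 1174 and 3498 genes passed for starvation of wild-type cells, starvation of knockout cells and genotype in rich medium (4560, 2527 and 6116 with edgeR). Fits of only the 4 libraries compared passed 9332, 0 and 3245. With limma-voom 5 members fell in starved knockout cells, and 29 were lower and 2 higher in rich knockout than in rich wild-type cells. With the 4 knockout libraries 0 fell. At 5 CPM in 2 libraries only 37 members were tested, Mx1 and Ifi27l2a not among them, and 3 were higher in the knockout after starvation. DESeq2 passed 2880 genes for the difference of responses, against 1853. Leaving out each library, the members lower and higher ran over 25 to 45 and 0 to 0 (starvation, wild type), 1 to 19 and 0 to 2 (starvation, knockout), 35 to 39 and 2 to 5 (genotype, rich), 28 to 36 and 5 to 7 (genotype, starved), and 0 to 3 and 1 to 19 (difference). The genes passing ran over 1579 to 9561, 265 to 8410, 3370 to 10336, 5127 to 11435 and 452 to 8020. Where this left a group with 1 library, that library was assumed to vary like the others. Without rich knockout replicates 1 and 2, log2 fold changes differed in sign, at -0.24 and 0.48 for Ifngr2 and -0.43 and 0.56 for Tyk2 (starvation, knockout), and at -0.60 and 0.57 for Samd9l and 0.58 and -0.39 for Tyk2 (genotype, rich). The cause was not tested. Same-numbered libraries correlated in their deviations at -0.03 to 0.184, so the numbers were not taken as pairs. With a replicate block, 37, 11, 37 and 31 members were lower in the 4 comparisons, and 6 differences were positive and 1 negative. Depth limits members under 3 counts in a group.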
